A study of Mus musculus with 6 samples.

Results

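The genes described here encode nuclear subunits of the mitochondrial respiratory chain and of ATP synthase, measured in splenic CD11c+ dendritic cells with and without the kinase TAK1. Members were taken by gene symbol: names beginning with Nduf followed by a subunit letter and number (complex I), Sdha to Sdhd (complex II), Uqcr (complex III), Cox4 to Cox8 with a letter (complex IV) and Atp5 (complex V). This found 79 genes with 135 probe sets among the 17097 genes that the platform annotation named, and for each gene the brightest probe set, by its mean over the 6 arrays, stood for the gene. Complex I had 34 members, complex II 4, complex III 7, complex IV 17 and complex V 17. The probe sets named Ndufs5-ps are annotated to a transcribed pseudogene, whose signal cannot be told apart here from that of near-identical copies, so this member is uncertain.

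The Map3k7 (TAK1) knockout group held 3 samples from C57Bl/6 mice labelled Map3k7CreER, and the wild-type group held 3 samples from C57Bl/6 mice. Both received tamoxifen in vivo for 3 days, which activates the CreER recombinase, so the drug is common to the groups while the labels name the Cre for the knockout only. CD11c+ cells were flow-sorted from the spleen, and each sample was hybridised to 1 Affymetrix array. What drives the Cre, the age of the mice and whether the samples came from separate animals are not given in the sources used here, so the p-values rest on the spread among these 6 samples alone, which may be technical.

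Respiration passes electrons from NADH through complex I, or from succinate through complex II, to ubiquinone, then through complex III to cytochrome c and through complex IV to oxygen. Complexes I, III and IV pump protons across the inner mitochondrial membrane, and complex V, the ATP synthase, uses their return to make ATP. Mitochondrial DNA encodes some subunits of complexes I, III, IV and V and none of complex II, so most subunit mRNAs, including all those described here, are transcribed in the nucleus. Dendritic cells are known to turn towards glycolysis after Toll-like receptor stimulation, a signal that TAK1 relays.

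Words for respiratory gene regulators stood in fewer than 1 in 2 of the promoters, and promoter sequence did not enter the selection of the genes. Nuclear respiratory factor 1 (NRF1), the ETS factor GABPA, YY1 and the estrogen-related receptor ESRRA are textbook regulators of respiratory genes, and a word for each was searched on both strands from 250 bases before to 50 bases after the start of each gene. RefSeq promoters (GRCm38.p6) matched 63 of the 79 members, with 68 promoters. The NRF1 word, GCATGCGC, was in 14.7% of member promoters, against 4% of promoters of all genes on the arrays and 2.71% of all promoters in the RefSeq table. The GABPA word, CCGGAAG, was in 22.1% of member promoters, against 13% on the arrays and 8.86% in the table. For the YY1 word, AAGATGGC, these shares were 14.7%, 3.42% and 2.75%, and for the ESRRA word, TCAAGGTCA, 2.94%, 0.316% and 0.423%. The ESRRA share of the members rests on only 2 of the 68 promoters. None of these words contains another. At least 1 of the 4 words was found for 30 of the 63 members, 13 of 29 in complex I, 2 of 3 in complex II, 2 of 4 in complex III, 3 of 12 in complex IV and 10 of 15 in complex V. Counted by gene, that is 47.6% of the 63 members, against 22% of the genes on the arrays and 15.3% of those in the table. The complex IV share was near that of all genes on the arrays. Counted by promoter, it is 44.1% of member promoters, against 19.1% on the arrays and 13.7% in the table. No test of these differences was run. A match is a stretch of letters and not evidence of binding, and no factor was measured on DNA here.

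The member chosen for each complex had the smallest p in the comparison that follows, among those with a match before the start. Below, as examples of upstream words only, are the 250 bases before the start of each of these genes. They are written 5′ to 3′ with the matched words in capitals (GCATGCGC for NRF1, CCGGAAG or its reverse complement CTTCCGG for GABPA). Their positions in GRCm38.p6 are Ndufa6 chr15:82354292-82354541, minus strand, Sdhb chr4:140961021-140961270, plus strand, Uqcr11 chr10:80406822-80407071, minus strand, Cox6b1 chr7:30626115-30626364, minus strand, Atp5l chr9:44920743-44920992, minus strand.
Ndufa6 (complex I): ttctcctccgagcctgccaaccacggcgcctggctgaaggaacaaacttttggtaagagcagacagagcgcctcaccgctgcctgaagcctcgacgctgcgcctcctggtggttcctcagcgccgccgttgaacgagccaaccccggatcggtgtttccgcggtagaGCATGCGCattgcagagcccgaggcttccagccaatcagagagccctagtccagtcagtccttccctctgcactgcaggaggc
Sdhb (complex II): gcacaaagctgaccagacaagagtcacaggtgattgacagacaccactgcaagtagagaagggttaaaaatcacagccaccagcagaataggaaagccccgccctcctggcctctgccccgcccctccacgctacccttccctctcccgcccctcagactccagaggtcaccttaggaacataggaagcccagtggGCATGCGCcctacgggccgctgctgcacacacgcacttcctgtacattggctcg
Uqcr11 (complex III): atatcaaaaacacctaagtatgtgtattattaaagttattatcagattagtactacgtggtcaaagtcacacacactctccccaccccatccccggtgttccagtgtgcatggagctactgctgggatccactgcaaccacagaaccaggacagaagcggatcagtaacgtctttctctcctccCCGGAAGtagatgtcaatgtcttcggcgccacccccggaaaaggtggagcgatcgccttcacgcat
Cox6b1 (complex IV): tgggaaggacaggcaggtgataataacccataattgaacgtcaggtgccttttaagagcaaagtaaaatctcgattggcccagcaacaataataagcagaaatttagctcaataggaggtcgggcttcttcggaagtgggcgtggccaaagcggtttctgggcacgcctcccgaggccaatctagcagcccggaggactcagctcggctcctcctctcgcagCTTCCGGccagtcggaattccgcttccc
Atp5l (complex V): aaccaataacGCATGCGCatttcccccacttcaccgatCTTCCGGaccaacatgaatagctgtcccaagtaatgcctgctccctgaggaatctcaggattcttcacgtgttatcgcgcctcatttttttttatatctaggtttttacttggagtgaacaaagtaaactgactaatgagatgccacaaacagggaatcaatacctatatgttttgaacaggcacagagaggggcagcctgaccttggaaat
The NRF1 word stood 83 to 76 bases before the start in Ndufa6 and 54 to 47 bases before it in Sdhb. The Atp5l promoter held the NRF1 word and the GABPA word farther upstream. Words that reach past the start are not printed. These were the GABPA word at positions 7 to 13 after the start in Sdhb, the NRF1 word across the start in Uqcr11 (-4 to 4) and another GABPA word at positions 25 to 31 in Atp5l. Most YY1 words of the members also lay after the start, and the printed stretches hold no YY1 or ESRRA word.

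The arrays were checked before the members were read. On the authors' log2 scale the median probe set of an array was at 3.77 to 3.81, and no arrays held identical values. Map3k7 fell on its representative probe set, with 4.04, 4.46 and 3.64 in the knockout arrays, against 6.68, 6.69 and 6.57 in the wild-type arrays (log2 difference -2.60, SE 0.19, limma with Benjamini-Hochberg adjusted p = 0.00128). The mean log2 level of 10 dendritic cell markers was 11.07 to 11.20 in knockout arrays and 11.32 to 11.49 in wild-type arrays, with 0 of the 10 past the threshold. That of 10 macrophage markers was 7.10 to 7.52 in knockout arrays and 6.85 to 6.99 in wild-type arrays (2 of 10 higher, 0 lower). For 5 erythroid markers it was 4.14 to 4.79 in knockout arrays and 5.43 to 6.44 in wild-type arrays (0 of 5 higher, 1 lower). At an adjusted p under 0.05 (limma) 1.08% of all genes were higher and 0.591% lower. For 5 neutrophil markers the mean was 5.04 to 6.19 in knockout arrays and 4.47 to 4.89 in wild-type arrays, with none past the threshold. For 4 B cell markers it was 5.39 to 5.51 in knockout arrays and 5.61 to 5.69 in wild-type arrays, also with none past it. Single markers differed within the lists. Differences were negative for 8 of 10 dendritic cell markers (-0.81 for Xcr1 to 0.35 for Flt3) and positive for 7 of 10 macrophage markers (-0.28 to 1.58). At an unadjusted p under 0.05 (limma) there were 5 of the 10 dendritic cell markers and 4 of the 10 macrophage markers, where 16.4% of all genes had such a p. S100a8 and S100a9 stood at 2.28 and 1.53, against -0.14 to 0.15 for the other neutrophil markers. Hba-a1 and Hbb-b2 stood at -3.57 and -3.01, against -0.34 to -0.24 for the other erythroid markers. T cell, NK cell and plasmacytoid dendritic cell marker means overlapped between the groups. The 3′ minus 5′ signal of the control probe sets, a sign of RNA integrity, was 0.31 to 0.35 for Actb in knockout arrays and 0.22 to 0.35 in wild-type arrays. For Gapdh it was -0.16 to -0.14 in knockout arrays and -0.26 to 0.15 in wild-type arrays. The part of cell makeup in the results below was not tested, and in sorted bulk samples fewer cells of a type and less RNA per cell cannot be told apart.

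The comparison asked whether loss of Map3k7 altered mRNA levels of the respiratory chain. No member passed the threshold: 0 of 79 rose and 0 fell at an adjusted p under 0.05 (limma, Benjamini-Hochberg over 45037 probe sets), where 1.67% of all 17097 genes passed (1.08% higher and 0.591% lower). At an unadjusted p under 0.05 there were 3 members, Sdha, Ndufv2 and Ndufa6, all higher in knockout cells, or 3.8% of members against 16.4% of all genes. Of the 135 member probe sets 0 passed, and 8 had an unadjusted p under 0.05, on both sides of 0. Lower in knockout cells were probe sets of Ndufa12 (-0.36), Ndufs5-ps (-0.36), Ndufb4 (-0.28) and Atp5k (-0.28) that were not the representatives. The others, of Sdha (0.25 and 0.31), Ndufv2 (0.22) and Ndufa6 (0.24), were higher. The smallest adjusted p of a probe set was 0.236 (limma), for the second probe set of Ndufa12. The member count stayed at 0 in each of 18 alternative analyses, while the number with an unadjusted p under 0.05 ran from 0 (without knockout replicate 3, or without wild-type replicate 1) to 10 (without wild-type replicate 3, or with a trended variance).

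The differences were small and mostly negative. Of the 79 members 60 had a negative difference (75.9%), against 53.9% of all genes. Their median log2 difference was -0.10, with quartiles of -0.21 and -0.01, against a median of -0.02 and quartiles of -0.13 and 0.10 over all genes. Among genes with a mean level of 9 or more, 53 of 67 members and 54.5% of the 2063 genes at that level were negative, with medians of -0.12 and -0.02. The median difference of the 79 members shrank to -0.04 when knockout replicate 3 was left out and to -0.05 without wild-type replicate 2. It was -0.14 when knockout replicate 1 was left out and -0.15 without wild-type replicate 3.

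**Figure D1:**
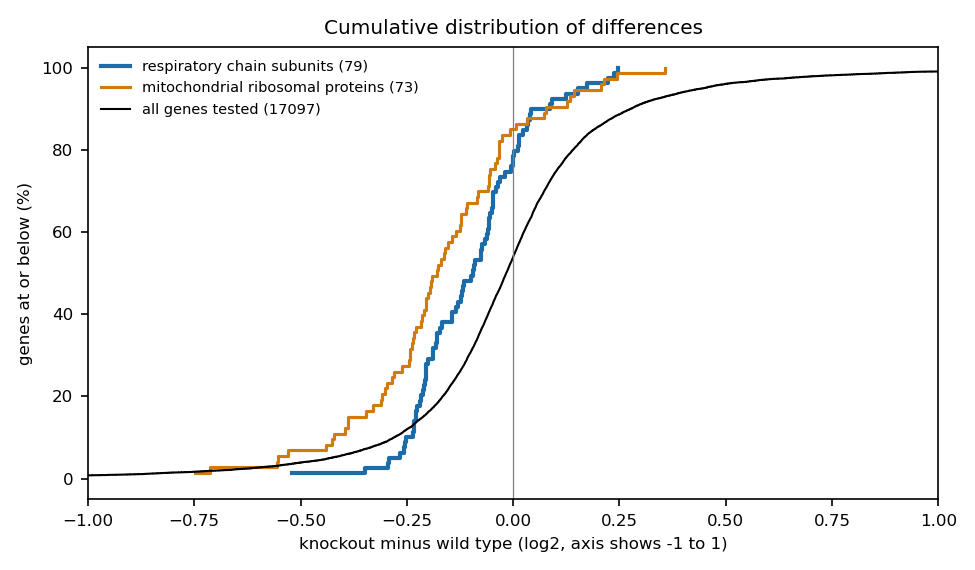
Cumulative share of genes (percent) against the knockout minus wild-type difference (log2) for the 79 respiratory chain subunits, 73 mitochondrial ribosomal proteins and all 17097 genes tested. At a difference of 0 the subunit curve stands at 75.9% and that of all genes at 53.9%, and the subunits span only -0.52 to 0.25.

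Standard errors of the members had a median of 0.11 and ran from 0.09 to 0.26. The 95% intervals of 62 of the 79 differences lay within 0.5 of 0 on the log2 scale, and those of 78 lay within 1. The exception was Cox6a2, whose interval reached -1.09. These intervals are not adjusted for the number of genes.

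**Figure D2:**
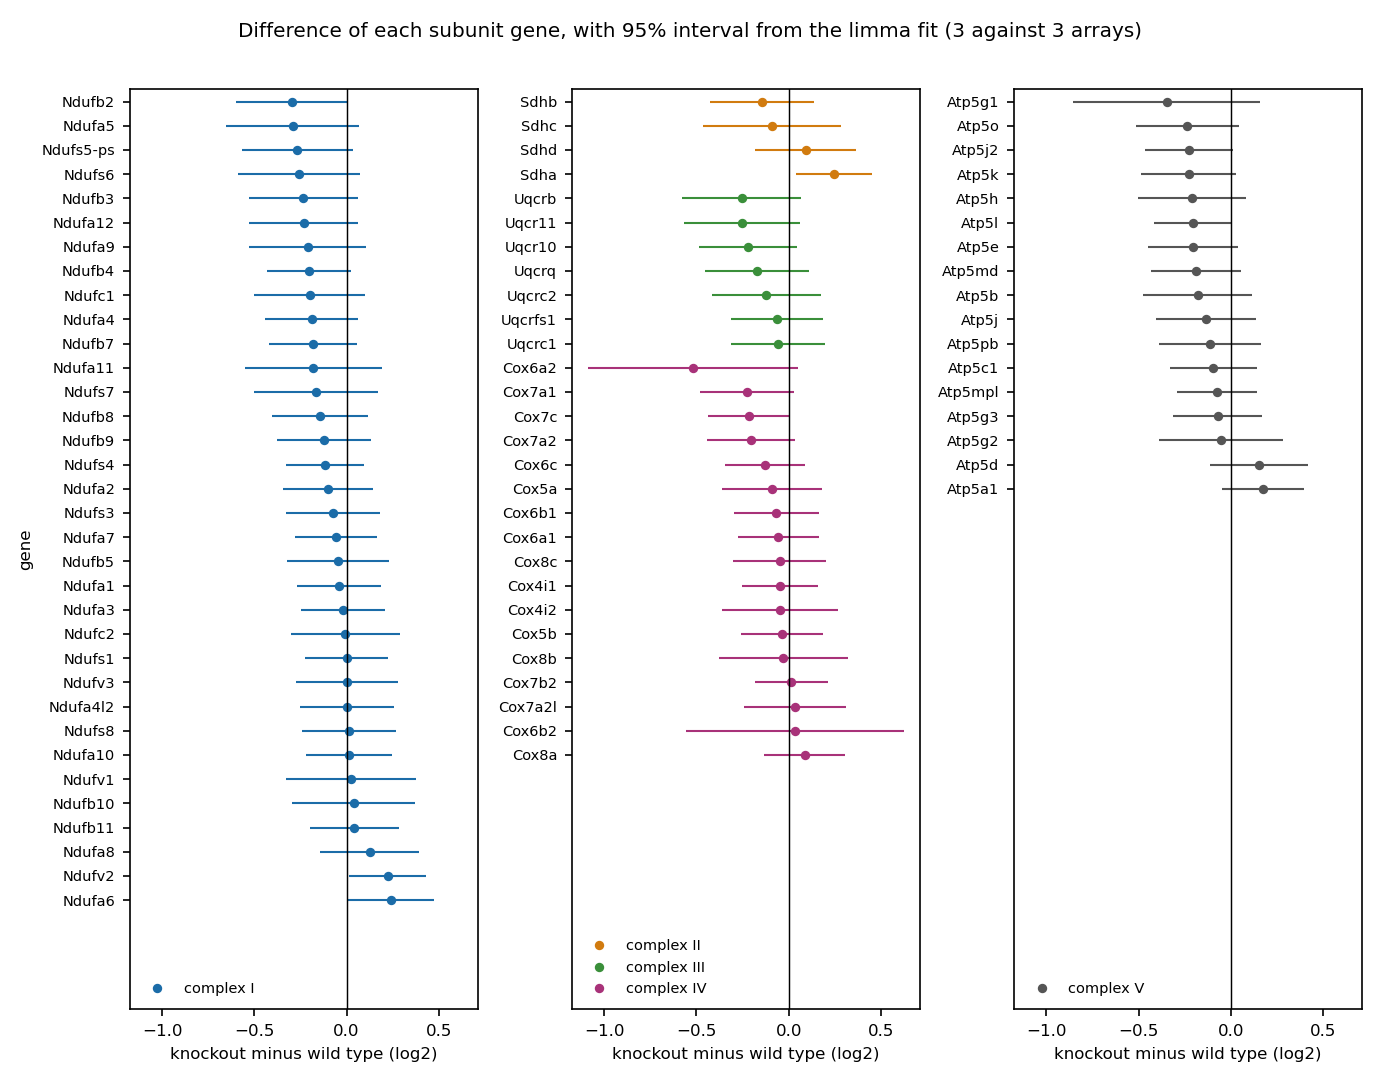
Knockout minus wild-type difference (log2, points) of each of the 79 members with its 95% interval from limma (lines), by complex and sorted within it. The intervals of Sdha, Ndufv2 and Ndufa6 leave out 0, all on the positive side, and the widest belong to Cox6b2 and Cox6a2.

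In 12 members the groups did not overlap (15.2%), where 21.2% of all genes showed this. Every knockout array lay above every wild-type array for Sdha, Ndufv2 and Ndufa6 (10.6% of all genes), and below it for Ndufb4, Ndufs4, Uqcr10, Cox7a1, Cox7a2, Cox7c, Atp5e, Atp5j2 and Atp5l (10.6% of all genes). Among all genes with a mean of 9 or more, 34.4% had groups apart, and of the 67 members at that level 3 lay wholly above and 8 wholly below. The members' share was thus below the background on this measure.

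Arrays of the same group differed from each other. Knockout replicate 3 had the lowest value of the 6 arrays in 53 of 79 members, and wild-type replicate 2 the highest in 43. Wild-type replicate 3 was the lowest in 21. The array median of the members' deviations from their own means was 0.04, -0.03 and -0.15 in knockout replicates 1 to 3, against 0.07, 0.15 and -0.06 in wild-type replicates 1 to 3. For the 2063 genes with a mean of 9 or more these medians were 0.02, 0.0018 and -0.06, against 0.03, 0.02 and -0.02. Wild-type replicate 3 therefore lay below knockout replicates 1 and 2, and the groups overlapped. Wild-type replicate 2, the array with the highest members, had the lowest 3′ minus 5′ values of the control probe sets (Actb 0.22, Gapdh -0.26), and wild-type replicate 3, the lowest wild-type array, had the highest (Actb 0.35, Gapdh 0.15). Knockout replicate 3 had 0.31 and -0.14, inside the range of the other arrays. The mean of the 5 erythroid markers was 4.79, 4.79 and 4.14 in knockout replicates 1 to 3 and 6.30, 6.44 and 5.43 in wild-type replicates 1 to 3, so that within each group it was lowest in the array where the members were lowest. The part of RNA integrity or of erythroid RNA in the members' values was not tested.

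Leaving out 1 array moved many of the single differences given below. Of 51 members named by rule 35 kept their sign each time, and 26 of these moved by over 1.5 times at least once, 22 of them without knockout replicate 3. Ndufs7 ran from -0.27 to -0.04, Sdhb from -0.25 to -0.05, Uqcrb from -0.34 to -0.12, Uqcr11 from -0.34 to -0.13 and Uqcrc2 from -0.22 to -0.04. The 9 that did not move so far included Sdha, Ndufv2, Ndufa6, Ndufb4, Cox7c and Atp5l.

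**Figure D3:**
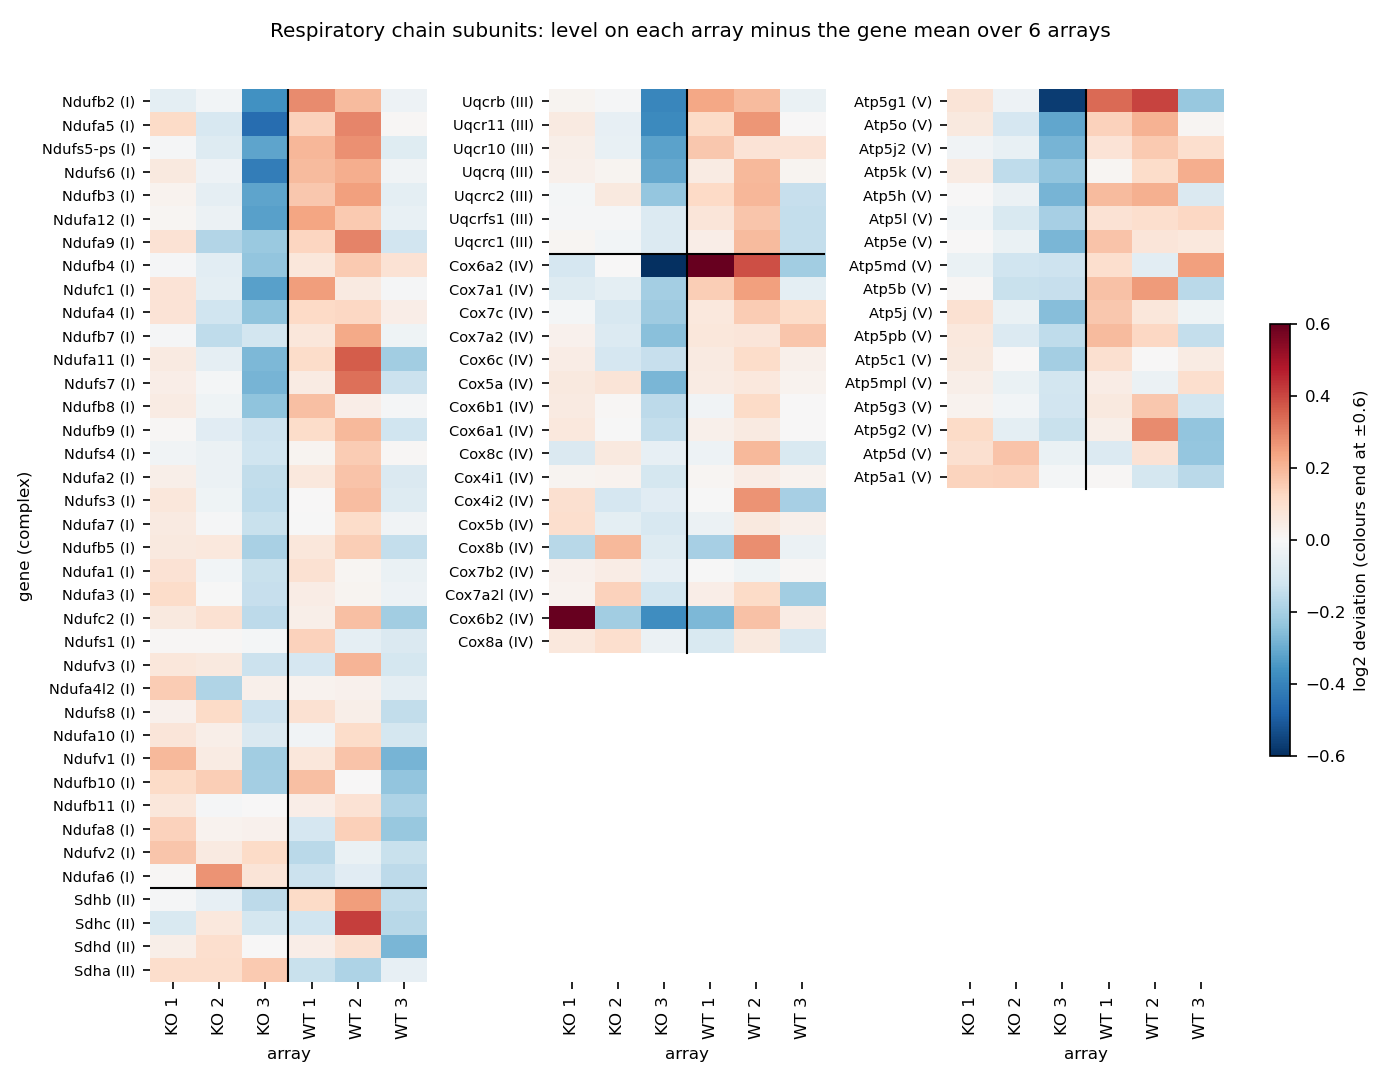
Heat map of each member's log2 level minus its mean over the 6 arrays, with knockout arrays (KO 1 to 3) left of wild-type arrays (WT 1 to 3) and genes sorted within each complex by their difference. Knockout replicate 3 is the lowest array in 53 of 79 rows and wild-type replicate 2 the highest in 43. The colour scale ends at 0.6.

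**Figure D4:**
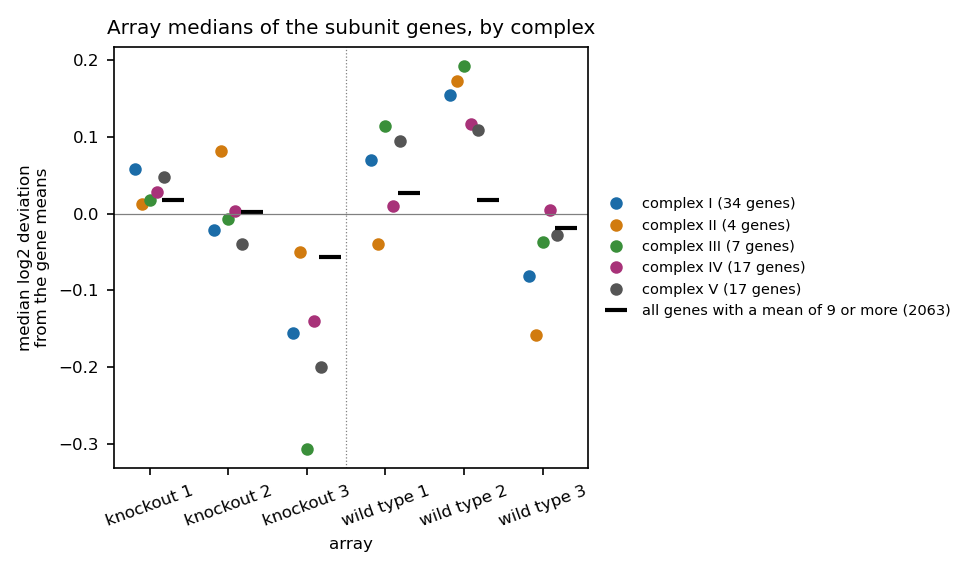
Median log2 deviation from the gene means on each array, by complex (points), beside that of the 2063 genes with a mean of 9 or more (bars). In knockout replicate 3 complex III stands at -0.31 and complex II at -0.05, and in wild-type replicate 2 all 5 complexes stand between 0.11 and 0.19.

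Complex I, NADH:ubiquinone oxidoreductase, had 23 negative and 11 positive differences and a median of -0.09, with 0 of 34 past the threshold. That median was -0.03 without knockout replicate 3, -0.04 without wild-type replicate 2 and -0.14 without wild-type replicate 3, and without knockout replicate 1 it was -0.13. Its catalytic core carries the FMN and iron-sulfur clusters that take electrons from NADH, and the accessory subunits stabilise it. Of the 6 nuclear core genes measured, 4 differences were positive and 2 negative, with a median of 0.0061. The accessory subunits, with Ndufa4 counted and the pseudogene and Ndufa4l2 left out, had 20 negative and 6 positive differences and a median of -0.12. The difference between core and accessory genes was not tested.

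Ndufv2, a core subunit with an iron-sulfur cluster, had 11.48, 11.37 and 11.43 in knockout arrays, against 11.15, 11.28 and 11.18 in wild-type arrays. All knockout arrays were higher, a log2 difference of 0.22 (SE 0.09, 95% interval 0.01 to 0.43, limma adjusted p = 0.364), and its second probe set stood at 0.12. The other core genes lay closer to 0. Ndufs1, the largest iron-sulfur subunit, had 8.35, 8.35 and 8.33 in knockout arrays, against 8.49, 8.29 and 8.26 in wild-type arrays. Its group means were equal to 2 decimals, at 8.35 ± 0.01 in knockout and 8.35 ± 0.12 in wild-type cells (SD, n = 3 each), and the 95% interval of the difference was -0.23 to 0.23. Ndufs7, which holds the last iron-sulfur cluster before ubiquinone, stood at -0.17 (95% interval -0.50 to 0.17) and at 0.0018 on its second probe set. Ndufv1, the FMN-binding subunit, stood at 0.02, Ndufs8 at 0.01 and Ndufs3 at -0.08.

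Among the accessory subunits Ndufa6 had 10.70, 10.96 and 10.77 in knockout arrays, against 10.56, 10.62 and 10.53 in wild-type arrays, with no overlap. That difference was 0.24 (SE 0.10, limma adjusted p = 0.398). Ndufb2, of the membrane arm, leaned the other way, with 9.78, 9.82 and 9.47 in knockout arrays and 10.12, 10.03 and 9.81 in wild-type arrays, which put it at -0.30 (SE 0.13, limma adjusted p = 0.427). Here knockout replicate 2 and wild-type replicate 3 overlapped. For Ndufb4 the values were 9.67, 9.62 and 9.44 in knockout arrays and 9.75, 9.84 and 9.77 in wild-type arrays, without overlap (-0.21, SE 0.10, limma adjusted p = 0.468). The uncertain Ndufs5-ps stood at -0.27 and Ndufa5 at -0.29 (limma adjusted p = 0.481 and 0.53). The remaining accessory subunits lay between -0.26 (Ndufs6) and 0.13 (Ndufa8).

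Ndufa4 is named for complex I, under which its symbol places it in all counts here, and is now held to be a subunit of complex IV. It had 11.44, 11.24 and 11.11 in knockout arrays and 11.47, 11.48 and 11.40 in wild-type arrays, which put it at -0.19 (SE 0.11, limma adjusted p = 0.576), and knockout replicate 1 overlapped the wild-type range. Its hypoxia-induced relative Ndufa4l2 was dim, at 3.73, 3.40 and 3.61 in knockout arrays and 3.60, 3.61 and 3.53 in wild-type arrays, below the level of the median probe set (3.77). A transcript at such a level may be unexpressed.

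Complex II, succinate dehydrogenase, is also an enzyme of the tricarboxylic acid cycle. Its flavoprotein Sdha, which oxidises succinate, had the largest positive difference of the 79 members and the smallest p. Sdha had 10.65, 10.65 and 10.70 in knockout arrays, against 10.41, 10.36 and 10.49 in wild-type arrays. All knockout arrays were higher, by 0.25 on average (SE 0.09, 95% interval 0.04 to 0.45, limma adjusted p = 0.293). The other bright Sdha probe set stood at 0.15 (limma adjusted p = 0.634), and of 2 dim ones 1 was positive (0.31) and 1 negative (-0.03). The iron-sulfur subunit Sdhb stood at -0.14 (SE 0.12), with 10.52, 10.48 and 10.38 in knockout arrays and 10.65, 10.78 and 10.38 in wild-type arrays. The membrane anchors Sdhc and Sdhd stood at -0.09 and 0.09, and the median of the 4 genes was 0.0015. That median was 0.13 without wild-type replicate 2 and -0.11 without wild-type replicate 3.

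Complex III, which passes electrons from ubiquinol to cytochrome c, was negative in 7 of 7 genes, with a median of -0.17 and 0 past the threshold. Without knockout replicate 3 its median was -0.06. The small subunit Uqcrb had 10.27, 10.24 and 9.86 in knockout arrays, against 10.48, 10.44 and 10.21 in wild-type arrays, a difference of -0.26 (SE 0.14, limma adjusted p = 0.544). Wild-type replicate 3 lay inside the knockout range. Uqcr10 had 9.95, 9.87 and 9.60 in knockout arrays and 10.08, 10.00 and 10.00 in wild-type arrays, with no overlap (-0.22, SE 0.11, limma adjusted p = 0.52), and its other 2 probe sets stood at -0.24 and -0.28. Uqcr11 stood at -0.25 and Uqcrq at -0.17. The core proteins Uqcrc1 and Uqcrc2 stood at -0.06 and -0.12, and the Rieske iron-sulfur protein Uqcrfs1 at -0.06 (limma adjusted p between 0.805 and 0.904 for the 3).

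Complex IV, cytochrome c oxidase, has nuclear subunits that come as widely expressed and tissue-specific isoforms. The median of its 17 members was -0.05, with 13 negative and 4 positive differences, and it was -0.06 over the 10 members outside the tissue isoforms. Over the 17 it was -0.11, -0.09 and -0.0045 with knockout replicate 1, 2 or 3 left out, and -0.09, -0.03 and -0.08 with wild-type replicate 1, 2 or 3 left out. Cox7c had 10.31, 10.23 and 10.11 in knockout arrays, against 10.39, 10.47 and 10.43 in wild-type arrays. The groups did not overlap, and the difference was -0.22 (SE 0.09, limma adjusted p = 0.415). Cox7a2, the widely expressed form of subunit VIIa, had 11.71, 11.60 and 11.43 in knockout arrays and 11.75, 11.76 and 11.85 in wild-type arrays (-0.20, SE 0.10, limma adjusted p = 0.502), and its second probe set stood at -0.19. Cox4i1, the widely expressed form of subunit IV, had 12.28, 12.28 and 12.16 in knockout arrays and 12.27, 12.31 and 12.28 in wild-type arrays (-0.05, 95% interval -0.25 to 0.16). Cox5a, which encodes subunit Va, had 12.15, 12.17 and 11.82 in knockout arrays and 12.14, 12.15 and 12.11 in wild-type arrays, so that knockout replicate 3 alone was low (-0.09, SE 0.12). Cox6c stood at -0.13, Cox5b at -0.03, Cox6a1 and Cox6b1 at -0.06 and -0.07, Cox8a at 0.09, and Cox7a2l, which acts in supercomplex assembly, at 0.03.

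The tissue isoforms were mostly dim. Cox7b2, Cox7a1 and Cox4i2 averaged below the median probe set, as Ndufa4l2 did, and these 4 were the only members to do so. Cox7a1, the heart and muscle form of subunit VIIa, had 3.30, 3.32 and 3.17 in knockout arrays and 3.53, 3.63 and 3.32 in wild-type arrays (-0.23, limma adjusted p = 0.475), a difference at a level where the gene may be unexpressed. The testis forms Cox8c and Cox7b2 stood at -0.05 and 0.01 and Cox8b at -0.03. Cox6a2, the heart and muscle form of subunit VIa, had 5.16, 5.26 and 4.57 in knockout arrays and 5.86, 5.64 and 5.04 in wild-type arrays. This was the largest negative difference of the 79 members, -0.52 (SE 0.25, limma adjusted p = 0.459), and wild-type replicate 3 lay inside the knockout range. It ran from -0.76 to -0.31 with 1 array left out. Cox6b2, a testis form of subunit VIb, had 6.97 in knockout replicate 1 and 5.97 to 6.51 on the other 5 arrays (0.03, SE 0.26).

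Complex V, the ATP synthase, was negative in 15 of 17 genes, with a median of -0.18 and 0 past the threshold. Without knockout replicate 3 the median was -0.12. The 2 positive genes belong to the F1 portion, which holds the catalytic head, and the 9 members outside it and the c ring were all negative, with a median of -0.21 and a range from -0.24 to -0.08. Atp5a1, the alpha subunit of the head (also called Atp5f1a), had 11.40, 11.40 and 11.25 in knockout arrays and 11.27, 11.16 and 11.10 in wild-type arrays, which put it at 0.17 (SE 0.10, limma adjusted p = 0.555). Knockout replicate 3 lay inside the wild-type range. Its partner Atp5b, the catalytic beta subunit, had 11.28, 11.14 and 11.14 in knockout arrays and 11.46, 11.53 and 11.12 in wild-type arrays, which put it at -0.18 (SE 0.13, limma adjusted p = 0.679). The gamma subunit Atp5c1 of the rotating shaft stood at -0.10, and Atp5d and Atp5e, the delta and epsilon subunits, at 0.15 and -0.20.

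Atp5l, a small membrane subunit whose promoter is printed above, had 11.45, 11.38 and 11.27 in knockout arrays, against 11.56, 11.57 and 11.60 in wild-type arrays. There was no overlap, and the difference was -0.21 (SE 0.09, limma adjusted p = 0.421). Atp5j2 had 11.71, 11.69 and 11.45 in knockout arrays and 11.81, 11.89 and 11.83 in wild-type arrays, also without overlap (-0.23, SE 0.10, limma adjusted p = 0.431), and its second probe set stood at -0.24. Atp5k stood at -0.23 on 1 probe set and -0.28 on the other (limma adjusted p = 0.478 and 0.284). In the peripheral stalk, which holds the head still, Atp5o, the oligomycin sensitivity protein, stood at -0.24, Atp5h at -0.21, Atp5j at -0.13 and Atp5pb at -0.11. The small membrane subunits Atp5md and Atp5mpl stood at -0.19 and -0.08.

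Atp5g1, Atp5g2 and Atp5g3 encode the c subunit, which forms the proton-driven ring and is the same mature protein from all 3 genes. Atp5g1 had 10.00, 9.89 and 9.35 in knockout arrays, against 10.26, 10.33 and 9.70 in wild-type arrays. Replicate 3 was the lowest array in each group, the groups overlapped, and the difference was -0.35 (SE 0.22, limma adjusted p = 0.618). It was -0.55 without wild-type replicate 3 and -0.15 without knockout replicate 3, and the other Atp5g1 probe set was too dim to show a difference (mean 3.14). Atp5g2 and Atp5g3 stood at -0.05 and -0.07.

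Probe sets of the same gene mostly pointed the same way. Of the 38 members with more than 1 probe set, 26 had all of them on the same side of 0 and 12 did not. Among the mixed ones were Atp5c1, with -0.10 on a bright probe set and 0.08 on a dim one, and Ndufb5, with -0.05 and 0.12 on bright probe sets.

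Other genes of the respiratory chain were read from lists of assembly factors, cofactor enzymes and regulators. Assembly factors, which build the complexes without remaining in them, had no gene past the threshold. At an unadjusted p under 0.05 there were 5 of 16 for complex I (31.2%), 1 of 5 for complex III (20%) and 4 of 20 for complex IV (20%). There were 0 of 4 for complex II and 0 of 6 for complex V, where 16.4% of all genes had such a p. Complex I factors were negative in 12 of 16 (median -0.09), complex II factors in 4 of 4 (-0.20), complex III factors in 4 of 5 (-0.15), complex IV factors in 12 of 20 (-0.06) and complex V factors in 5 of 6 (-0.19). Without knockout replicate 3 the medians were 0.0068 for complex I, 0.04 for complex IV and -0.11 for each of complexes II and V. Without knockout replicate 1 the complex IV median was -0.13, and without wild-type replicate 2 it was -0.01. Nubpl, which delivers iron-sulfur clusters to complex I, had 7.89, 7.82 and 7.67 in knockout arrays and 7.49, 7.32 and 7.14 in wild-type arrays (0.48, SE 0.12, limma adjusted p = 0.127). Dmac1, of the complex I membrane arm, stood at -0.43 (limma adjusted p = 0.2). Uqcc2, needed for cytochrome b synthesis, had 9.78, 9.61 and 9.27 in knockout arrays and 10.09, 9.99 and 10.08 in wild-type arrays (-0.50, SE 0.14, limma adjusted p = 0.159), and Uqcc1 stood at -0.29.

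For complex IV, the assembly factor Pet100 had 9.45, 9.40 and 9.30 in knockout arrays and 9.80, 9.78 and 9.72 in wild-type arrays. The difference was -0.39 (SE 0.09, limma adjusted p = 0.104) with no overlap, which 21.2% of all genes showed. Surf1, an assembly factor mutated in Leigh syndrome in humans, stood on the other side of 0, with 9.03, 8.95 and 8.99 in knockout arrays and 8.59, 8.75 and 8.46 in wild-type arrays (0.39, SE 0.10, limma adjusted p = 0.143). The succinate dehydrogenase factors Sdhaf4 and Sdhaf2 stood at -0.35 and -0.22, and the ATP synthase factors Dmac2l and Fmc1 at -0.27 and -0.42 (limma adjusted p between 0.473 and 0.638 for the 4). Ndufab1, the acyl carrier protein that is also a complex I subunit and falls outside the symbol rule, stood at -0.24.

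Mitochondrial ribosomal proteins, which translate the subunits encoded in mitochondrial DNA, were negative in 62 of 73 genes, with a median of -0.18 and 0 past the threshold. Their array medians were 0.07, -0.03 and -0.30 in knockout arrays and 0.12, 0.26 and -0.12 in wild-type arrays, so that knockout replicate 3 was the lowest and wild-type replicate 2 the highest, as among the subunits. The same arrays were lowest and highest over all 17097 genes, with smaller medians of -0.031 and 0.025. The median of the list was -0.06 without knockout replicate 3 and -0.27 without knockout replicate 1, and -0.11 and -0.28 with wild-type replicate 2 or 3 left out. Mrps27 stood at -0.71 (SE 0.15, limma adjusted p = 0.0785) and Mrps6 at -0.75 (SE 0.17, limma adjusted p = 0.1), the smallest p of the list. In both all knockout arrays lay below all wild-type arrays. Of the 73 genes 10 were so placed and 3 the other way round, where each way held 10.6% of all genes.

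Of 9 regulators of mitochondrial biogenesis, 1 rose and 0 fell, where 1.08% of all genes rose and 0.591% fell. Their median was 0.02, and it ran from -0.02 to 0.06 with 1 array left out. Ppargc1b, a coactivator of respiratory genes, had 3.87, 3.92 and 3.94 in knockout arrays, against 3.29, 3.34 and 3.27 in wild-type arrays, a rise of 0.61 (SE 0.09, limma adjusted p = 0.0211). Both groups lay near the median level of an array, and when each array was left out in turn the gene passed only without knockout replicate 1 (limma adjusted p of 0.0359, against 0.0582 to 0.107 in the other 5 fits). Gabpb1, the partner of GABPA, had 5.17, 5.40 and 5.58 in knockout arrays and 5.84, 5.73 and 5.95 in wild-type arrays (-0.46, SE 0.13, limma adjusted p = 0.171). Nrf1, which encodes the factor of the GCATGCGC word, had 5.38, 5.52 and 5.46 in knockout arrays and 6.03, 5.95 and 5.53 in wild-type arrays (-0.38, SE 0.14, limma adjusted p = 0.317). In both genes all knockout arrays lay below all wild-type arrays, as in 10.6% of all genes, and in Nrf1 only barely (5.52 against 5.53). Of 11 genes for maintenance and transcription of mitochondrial DNA 0 passed, and their median of 0.02 ran from -0.07 to 0.13 with 1 array left out, with the exonuclease Mgme1 at -0.37 and the elongation factor Tefm at -0.57.

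Ubiquinone, the electron carrier before complex III, had 10 synthesis and handling genes measured, of which 0 passed. Their median was -0.02, and it ran from -0.06 to 0.11 with 1 array left out. The hydroxylase Coq6 stood at -0.60 (limma adjusted p = 0.131) and the ubiquinone-binding Coq10b at 0.46 (limma adjusted p = 0.145). Among 8 other donors and carriers 2 rose and 0 fell, where 1.08% of all genes rose. Sqor, which feeds electrons from sulfide to ubiquinone, rose by 2.89 (SE 0.21, limma adjusted p = 0.00126) and passed in 15 of 16 alternatives. It stood at 0.07 (limma adjusted p = 0.853) without probe sets ending in x, s or a, where a less bright probe set stood for the gene. Why these probe sets differ was not tested. Chdh, choline dehydrogenase, rose by 0.64 (SE 0.10, limma adjusted p = 0.0287) at 4.05, 4.05 and 4.20 in knockout arrays against 3.56, 3.37 and 3.46 in wild-type arrays, and of the 6 fits that leave an array out it passed only in the one without knockout replicate 1. The wild-type level of Chdh, like that of Ppargc1b, lay below the median probe set, where a gene may be unexpressed, so the size of either rise is uncertain. Cytochrome c, Cycs, had 10.84, 10.72 and 10.44 in knockout arrays and 11.37, 11.34 and 11.13 in wild-type arrays, a difference of -0.61 that did not pass (SE 0.13, limma adjusted p = 0.0774). Of 8 carriers of nucleotides, phosphate and protons 0 passed (median -0.09, or -0.15 to -0.03 with 1 array left out), with the porin Vdac3 at -0.24 and the phosphate carrier Slc25a3 at 0.21.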

How the data were processed

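The authors deposited log2 values of 1 array per sample, hybridised from 100 ng of RNA. The submitters' processing notes name RMA, which corrects background, quantile-normalizes and summarises probe sets, and Expression Console 1.1. The log2 scale was read from the values, which run from 2.58 to 13.9. The genome build is not given in the sources used here, and arrays give no read depth, so their number limits the precision. Of 45141 probe sets 104 controls were left out. The platform annotation gave 28898 of the other 45037 a single symbol, 551 several and 15588 none, and genes were named only from the first of these.

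The contrast of knockout minus wild type used limma 3.58.1 (lmFit and eBayes, without covariates) under R 4.3.3. P-values were adjusted by Benjamini-Hochberg over the 45037 probe sets, and the threshold was 0.05. The step was run on simulated data with planted differences larger than nearly all of those of the members. That checks the calculation and not its power for differences as small as theirs. Members and lists were chosen with earlier results of these data known, so lists are given by counts and medians without a test. Named are Map3k7, per complex the 4 members with the smallest p and both extremes, members with a fixed role (core subunits, isoforms, head, c ring, stalk), and per list the genes past the threshold and the 2 with the smallest p. Other genes were named after their values were seen. Symbols are those of the platform, which are older for Atp5 genes. Figures used matplotlib 3.10.9 in Python 3.11.15.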

Additional observations from a re-analysis of the deposited data

How the results depend on the processing

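The count of members past the threshold was 0 in all 18 alternatives, which were other choices of probe set, a filter on dim probe sets, centring, quantile normalization, other variance models, array weights, thresholds of 0.1 and 0.01, the replicate block and each array left out. Members with a negative difference numbered 52 to 70 of 79 with 1 array left out, and 46 of the 61 measured without probe sets ending in x, s or a. The median of complex II ran from -0.11 to 0.13 with 1 array left out. The genes past the threshold in the other mitochondrial lists numbered 3 in the analysis reported and 1 to 5 with 1 array left out, 1 without probe sets ending in x, s or a, and 8 with the replicate block. Map3k7 passed in all 16 of its alternatives, between -3.25 and -1.81.

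Of the 51 members named by rule 0 passed in any alternative and 34 kept their direction. The other 17, none with a difference over 0.0955 in size, changed sign in some alternative, and the cause was not tested. With 1 array left out the ranges were -0.021 to 0.16 for Sdhd, -0.19 to 0.10 for Sdhc, -0.14 to 0.023 for Uqcrc1, -0.15 to 0.0046 for Uqcrfs1, -0.043 to 0.070 for Ndufs1, -0.059 to 0.077 for Ndufs8, -0.11 to 0.13 for Ndufv1, -0.072 to 0.093 for Ndufa4l2, -0.16 to 0.075 for Cox4i2, -0.10 to 0.00097 for Cox6a1, -0.27 to 0.23 for Cox6b2, -0.063 to 0.10 for Cox7a2l, -0.0049 to 0.042 for Cox7b2, -0.14 to 0.10 for Cox8b, -0.11 to 0.035 for Cox8c and -0.19 to 0.074 for Atp5g2. Quantile normalization once more gave -0.025 for Ndufs1, -0.0022 for Ndufv1 and -0.015 for Cox6b2. Array weights gave -0.036 for Ndufs1, 0.038 for Cox8b and -0.026 for Ndufa4l2. Averaging the probe sets of each gene gave -0.00012 for Ndufs8 and -0.0012 for Cox7a2l, the probe set with the smallest p gave -0.048 and -0.034 for these genes, and leaving out probe sets ending in x, s or a gave -0.016 for Ndufs8 and 0.082 for Atp5c1.

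The replicate numbers are shared by the groups. Deviations of same-numbered arrays had correlations of 0.0542, 0.133 and 0.322 over all probe sets, for replicates 1, 2 and 3. Knockout replicates 2 and 3 correlated best with the wild-type array of their own number, and knockout replicate 1 with wild-type replicate 2 (0.22). Whether the arrays are pairs cannot be told from this, and the fit reported did not treat them as pairs. With the replicate block 542 genes passed in place of 285, and the member count stayed at 0. The number of all genes past the threshold was 475, 61 and 164 with knockout replicate 1, 2 or 3 left out, and 88, 92 and 190 with wild-type replicate 1, 2 or 3 left out. With 3 arrays a group the median standard error of a member's difference was 0.11, which limits what could be called.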
